A study of Homo sapiens with 6 samples.

Results

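Transcripts of lysosomal enzymes, lysosomal membrane proteins and the proton pump V-ATPase were measured in samples labelled HCC1954, a breast cancer line, after 3 days with TBK1 inhibitor II (n = 3), set against samples given vehicle only for the same time (n = 3). The members were the array probes whose annotated gene symbol was on a list of 42 symbols, or began with ATP6V. Since CTSL1 is an older name of CTSL, the list stood for 41 genes, of which 40 had a probe, and CD63 was not analysed here, nor was the pump subunit gene ATP6V0C. With 19 ATP6V genes this made 59 genes with 93 probes, out of 20045 genes and 47321 probes. HCC1954 is an established line from a breast carcinoma, labelled HER2 positive in both groups, and the inhibitor is a small molecule named for the innate immune kinase TBK1. The series set out to describe the response of such cells to inhibition of TBK1. No dose is labelled. Whether replicates were grown separately is not labelled either, and each p-value therefore reflects only the variation among these 6 samples, possibly technical.

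The lysosome is the organelle in which cells break down proteins, sugar chains, sulfated polymers and lipids with hydrolases that work best in acid. The acid is supplied by the V-ATPase, a rotary pump whose cytosolic V1 sector splits ATP and whose membrane-embedded V0 sector carries protons across. Many of these genes are known to be switched on together by the transcription factors TFEB, TFE3 and MITF, which bind a promoter motif called the CLEAR element. TBK1 is known to phosphorylate receptors of selective autophagy, a route that ends in lysosomes.

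The arrays had median signal intensities of 110.7 to 130.7 in inhibitor samples and 98.5 to 138.1 in vehicle samples, with 19676 to 20741 and 18325 to 20127 detected probes. A probe was called detected at a detection p under 0.05, and the 19958 probes detected on at least 3 of the 6 arrays were tested. The labelled cell type was only in part matched by its defining markers. ERBB2, KRT8, KRT18, EPCAM and CDH1 each had a probe detected on all 6 arrays, although the other 2 probes of ERBB2 were detected on 0. STARD3, PGAP3 and MIEN1, of the same chromosomal region as ERBB2, were also detected on all 6, with median signals of 267.55, 180.15 and 164.15. The luminal marker GATA3 was detected on 3 inhibitor and 2 vehicle arrays, and CLDN4 on 2 inhibitor and 3 vehicle arrays. By contrast KRT7, KRT19, CLDN3 and GRB7 were detected on 0. VIM, CDH2 and NEFM, more typical of mesenchymal or neural cells, were detected on all 6. On the brightest probe of each gene, median signals were 405.3 for ERBB2, 172.25 for KRT8, 199.5 for KRT18, 194.25 for EPCAM and 164.7 for CDH1. They were 5666.75 for VIM, 1407.05 for CDH2 and 2003 for NEFM, though 219.9 for the neural gene NEFL. The detected markers of the label were thus far dimmer than VIM, CDH2 and NEFM. Each direction below is therefore a difference between samples labelled HCC1954.

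Of the 59 genes, 53 (89.8%) had a tested probe, against 57.8% of all genes on the array. In the comparison of inhibitor with vehicle, 2 of the 53 rose, CTSK and ATP6V0A1, none fell and 51 did not pass the test (limma, adjusted p under 0.05 over all 11582 genes tested). CTSK, detected on 3 inhibitor arrays and 0 vehicle arrays, entered the test only through the group where it is high, so the count rests on ATP6V0A1 among genes measured in both groups. The shares called over all genes were 3.59% higher and 1.86% lower, so the 3.77% of lysosomal and pump genes that rose was near the background. At an unadjusted p under 0.05, 10 of the 53 were higher and 5 lower, against 14.7% and 9.73% of all genes. The groups did not overlap for 15 of the 53 in the upward direction (28.3%) and for 5 in the downward direction (9.43%), against 18.5% and 13% of all genes. The median log2 fold change of the 53 was 0.11, against 0.03 over all genes. The number that passed depended on the processing. It was 11 of 53, 8 higher and 3 lower, both without background correction and with a robust, trended variance prior, where 11.8% and 10.7% of all genes were called. It was 0 whenever inhibitor replicate 1, 2 or 3 was left out, where at most 0.159% of all genes were called. In those settings CTSK no longer met the filter and was not tested.

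**Figure D1:**
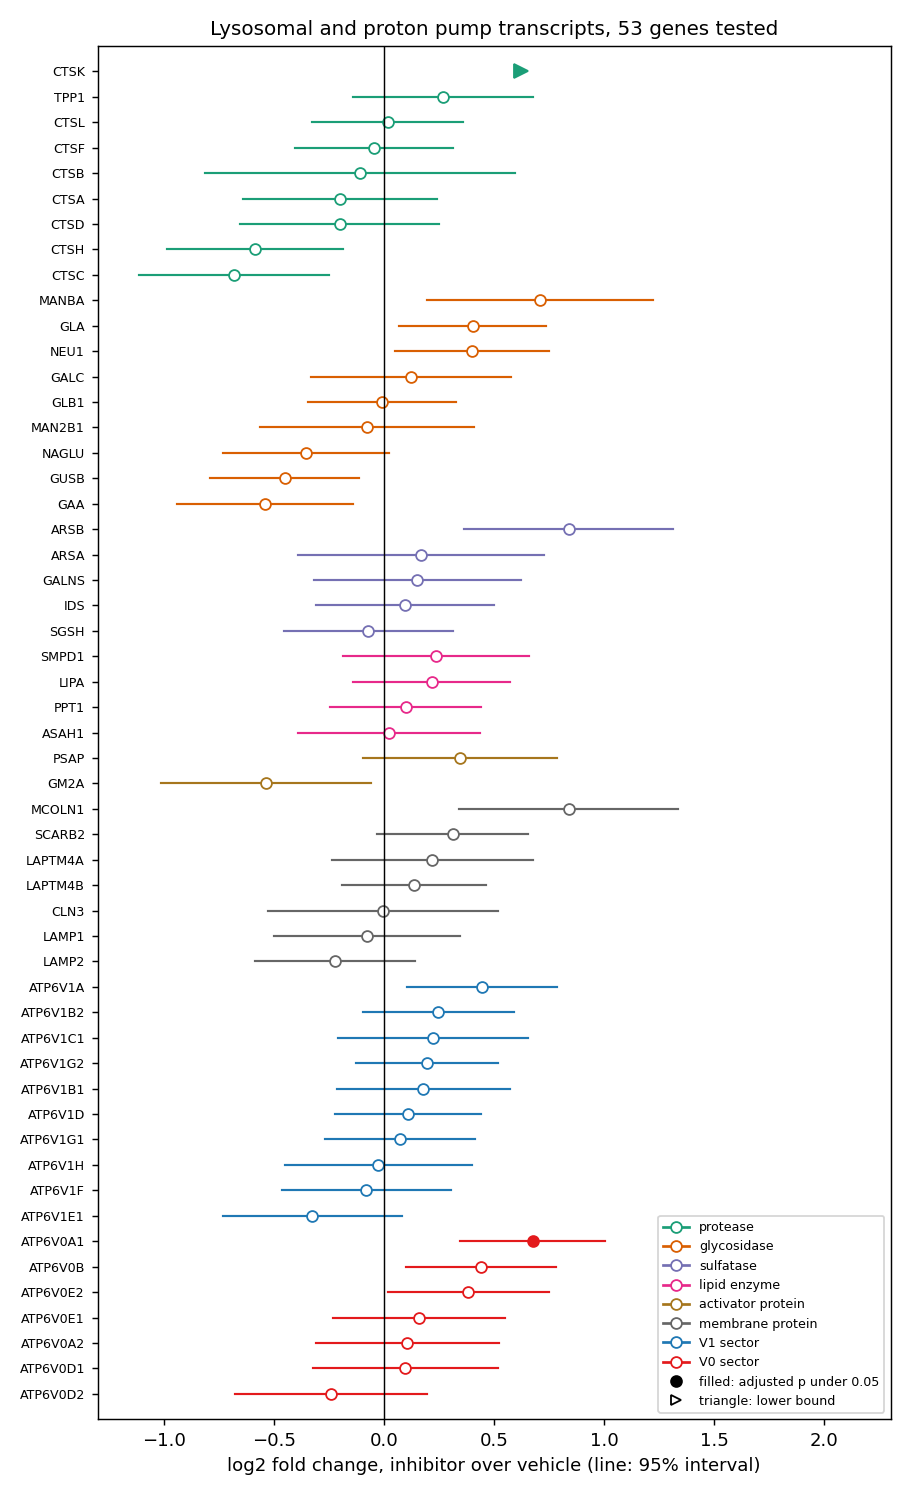
Log2 fold change of inhibitor over vehicle (x axis) for each of the 53 genes tested, grouped by role, with 95% intervals from limma and n = 3 per group. CTSK is a triangle at its lower bound (at least 1.54-fold), since no vehicle array detected it. The filled circle is ATP6V0A1 at 0.68, and the open circles run from -0.68 (CTSC) to 0.84 (MCOLN1).

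Promoter sequences are shown for 3 genes because they set the CLEAR element beside the responses. RefSeq promoters of build GRCh38.p14, from 250 bases before to 50 after the start site, were at hand for 41 of the 59 genes. They were searched for the core of the CLEAR element, CACGTG, and for the full element, which is the core with GT before it and AC after it. Both read the same on either strand, and every full element holds a core. The core was present in 13 of the 41 promoters (31.7%), against 10.2% of the 9355 promoters of tested genes and 7.43% of all 27305 promoters in the table. The full element was present in 4 (9.76%), against 0.78% and 0.381%. The 4 genes were MCOLN1, GAA, GALNS and ATP6V1G1, with log2 fold changes of 0.84, -0.54, 0.15 and 0.07, none of which passed the test. The 13 genes with the core had log2 fold changes from -0.54 to 0.84, 7 above 0 and 6 below, with a median of 0.07. The 24 tested genes without it had a median of 0.11. A match is a description of the sequence and not evidence of binding. In the sequences, written 5′ to 3′ on the strand of the gene, capitals mark the core. In the promoter of MCOLN1 (chr19:7522374-7522673, plus strand) it begins at -41 and -14 relative to the start site, and the match at -14 lies in a full element. In that of GAA (chr17:80101331-80101630, plus strand) it begins at -76 and -31, each time in a full element. The promoter of ATP6V0A1 (chr17:42458628-42458927, plus strand), a gene that rose, has no core in this window.
MCOLN1: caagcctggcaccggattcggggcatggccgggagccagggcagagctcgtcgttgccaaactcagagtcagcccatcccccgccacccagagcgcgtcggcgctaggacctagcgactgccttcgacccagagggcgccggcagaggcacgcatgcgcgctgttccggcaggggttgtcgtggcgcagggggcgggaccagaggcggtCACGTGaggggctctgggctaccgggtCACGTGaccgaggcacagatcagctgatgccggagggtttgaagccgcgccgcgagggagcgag
GAA: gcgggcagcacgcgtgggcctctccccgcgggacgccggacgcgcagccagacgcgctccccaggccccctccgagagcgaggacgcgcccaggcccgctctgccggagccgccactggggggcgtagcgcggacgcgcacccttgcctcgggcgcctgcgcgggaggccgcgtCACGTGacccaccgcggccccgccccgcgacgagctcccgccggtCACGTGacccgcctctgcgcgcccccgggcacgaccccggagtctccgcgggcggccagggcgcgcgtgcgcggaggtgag
ATP6V0A1: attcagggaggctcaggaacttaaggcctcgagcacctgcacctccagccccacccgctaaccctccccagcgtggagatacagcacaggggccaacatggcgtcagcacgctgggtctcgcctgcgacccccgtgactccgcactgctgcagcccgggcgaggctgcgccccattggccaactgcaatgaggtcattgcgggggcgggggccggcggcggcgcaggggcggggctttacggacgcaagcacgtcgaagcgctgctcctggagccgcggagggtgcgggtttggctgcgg

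The proteases held values on both sides of 0, most of them small. Of the 11 protease genes 9 were tested, 1 rose and none fell. The remaining 8 missed the threshold. Log2 fold changes were positive for 3 and negative for 6 (median -0.11). CTSK encodes cathepsin K, a collagen-degrading cysteine protease abundant in osteoclasts. It had normalized log2 levels of 5.45, 5.63 and 5.95 in inhibitor samples and 4.62, 4.46 and 4.85 in vehicle samples. The groups did not overlap, and the probe was detected on all 3 inhibitor arrays and on no vehicle array, so the vehicle level is only a bound and the probe passed the filter through the inhibitor group alone. CTSK was at least 1.54-fold higher with the inhibitor (limma adjusted p = 0.0268, group means 5.68 and 4.64), a p that uses those vehicle levels and is conditional on that filter. CTSK was not tested where detection on all 6 arrays was required, nor where any inhibitor array was left out. Such a bound sets the inhibitor mean against, for each vehicle array, either the lowest level of any detected probe or the level of the CTSK probe, whichever was higher. The CTSK signal was dim in both groups, with intensities of 127.1, 147.5 and 180.9 in inhibitor samples and 94.1, 90.6 and 140.3 in vehicle samples. Taken from the deposited processed values, the CTSK difference was 0.29 on their log-like scale and the call was lost (adjusted p = 0.0535, range over its alternatives 0.00968 to 0.0535).

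Markers of cells in which cathepsin K or lysosomes are abundant were looked at beside this result. OSCAR, an osteoclast receptor, was detected on 0 arrays. Of 7 macrophage genes on the array 3 were tested and 1, CD14, rose, by 1.06 ± 0.25 in log2 units (SE, adjusted p = 0.0429 in limma), on a probe detected on 3 inhibitor and 2 vehicle arrays. The other CD14 probe was detected on 0 arrays. CD68 had a log2 fold change of 0.32 and AIF1 of -0.41, neither of which passed, while the defining genes PTPRC, CSF1R and TYROBP were detected on 0 arrays. The summed signal of the macrophage list, not normalized, was 1924.8 to 2446.3 in inhibitor samples and 1633.3 to 2417.4 in vehicle samples. Of 5 fibroblast genes 2 could be tested, COL1A1 and COL3A1, and neither passed, though their inhibitor arrays lay above their vehicle arrays. PDGFRB was detected on 0 arrays, and the fibroblast list's summed signal was 1298.4 to 1591.8 in inhibitor samples and 1002.8 to 1557.6 in vehicle samples. Both sums take in undetected probes without background correction, so they are in part background and say little about these transcripts. The part of these cells in the result was not tested. In bulk RNA such as this, fewer cells of a type and less RNA per cell cannot be told apart.

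Cathepsins C and H, both aminopeptidases, had the lowest values among the proteases. CTSC, which activates the serine proteases of immune granules, had log2 levels of 9.01, 9.22 and 8.82 in inhibitor samples and 10.01, 9.55 and 9.52 in vehicle samples. Its log2 fold change was -0.68 ± 0.19 (SE, n = 3 per group, limma adjusted p = 0.0707). CTSH had levels of 9.65, 9.19 and 9.14 in inhibitor samples and 9.89, 9.97 and 9.87 in vehicle samples, with a log2 fold change of -0.58 ± 0.18 (adjusted p = 0.0873). In neither gene did the groups overlap, and neither passed the test.

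Cathepsins B, D and L, the major cathepsins of most cells, had smaller values. CTSB, a cysteine protease, had levels of 8.60, 8.30 and 8.13 in inhibitor samples and 7.79, 9.17 and 8.40 in vehicle samples, so the vehicle arrays enclosed the inhibitor arrays. Its log2 fold change was -0.11 ± 0.31 (adjusted p = 0.868), and the 95% interval, from -0.81 to 0.60, was the widest among the proteases. The other tested probe of CTSB had -0.50, also with overlapping groups. CTSD, the main aspartic protease, had levels of 6.93, 7.22 and 7.13 in inhibitor samples and 7.01, 7.68 and 7.19 in vehicle samples. For CTSD the groups overlapped, the log2 fold change was -0.20 ± 0.20 (adjusted p = 0.584), and the interval ran from -0.66 to 0.25. CTSL, another cysteine protease, had 10.95, 10.93 and 10.91 in inhibitor samples and 11.08, 10.82 and 10.84 in vehicle samples. Here the groups overlapped, the log2 fold change was 0.02 ± 0.15 (adjusted p = 0.959), and the interval ran from -0.33 to 0.36, short of a 2-fold change either way. Other tested CTSL probes had -0.03 and -0.36, both with overlapping groups. The remaining proteases, CTSA, CTSF and TPP1, had log2 fold changes of -0.20, -0.04 and 0.27. CTSO was detected on 2 inhibitor arrays and 0 vehicle arrays and CTSZ on 0, so neither was tested.

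**Figure D2:**
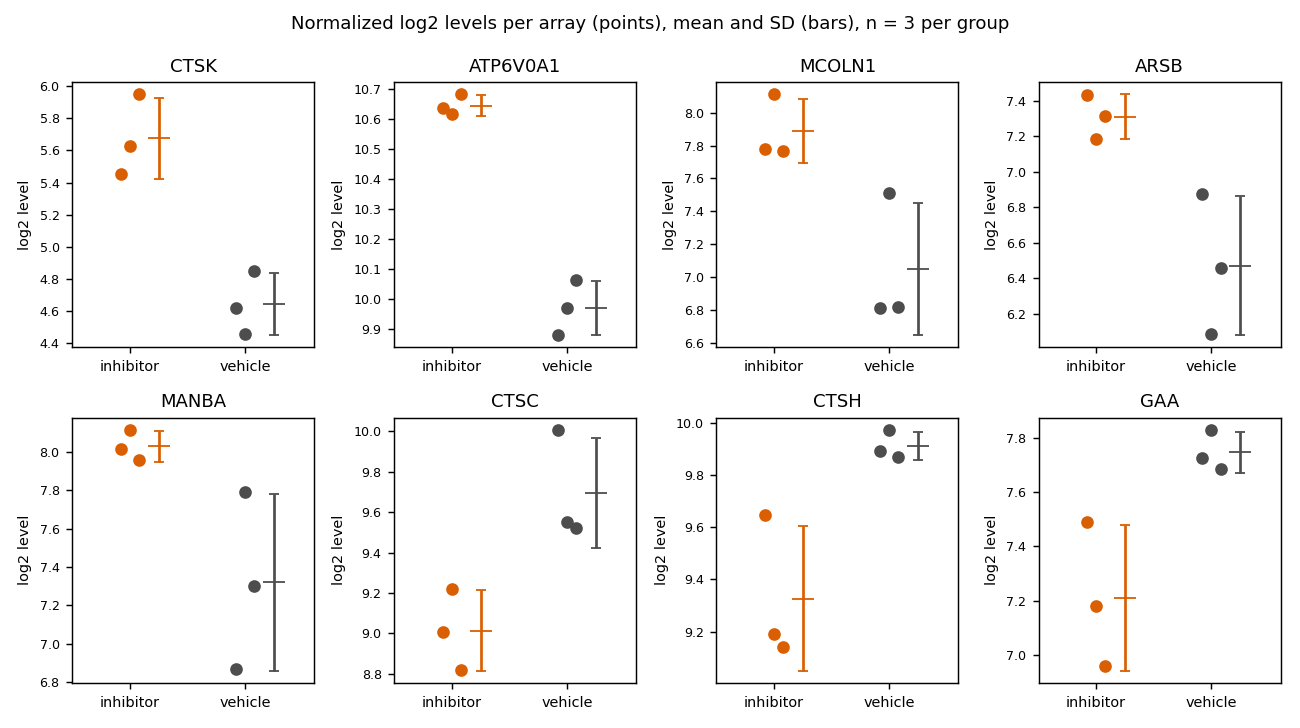
Normalized log2 level on each array (points), with the mean and SD beside them, in inhibitor and vehicle samples (n = 3 each) for 8 genes. In each panel the groups do not overlap, CTSK and ATP6V0A1 passed the test, and MCOLN1, ARSB, MANBA, CTSC, CTSH and GAA did not. The CTSK vehicle points were not above background. Each panel has its own y axis.

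The glycosidases, which trim sugar chains from glycoproteins, glycolipids and glycogen, also held values on both sides of 0. Of 11 genes 9 were tested and 0 passed, 4 being positive and 5 negative (median log2 fold change -0.01). MANBA, beta-mannosidase, had levels of 8.02, 8.12 and 7.96 in inhibitor samples and 6.87, 7.79 and 7.30 in vehicle samples. The inhibitor arrays lay together above a wide vehicle group, and the log2 fold change was 0.71 ± 0.23 (adjusted p = 0.0994). GLA, alpha-galactosidase A, had levels of 13.39, 13.30 and 13.24 in inhibitor samples and 12.81, 12.96 and 12.96 in vehicle samples. Its log2 fold change was 0.40 ± 0.15 (adjusted p = 0.139), with tight groups that did not overlap. The sialidase gene NEU1 had a like value of 0.40 ± 0.16 (adjusted p = 0.159).

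In the other direction stood GAA, the acid alpha-glucosidase that degrades glycogen. It had levels of 7.49, 7.18 and 6.96 in inhibitor samples and 7.73, 7.83 and 7.69 in vehicle samples, and a log2 fold change of -0.54 ± 0.18 (adjusted p = 0.105). The GAA groups did not overlap on this probe, while the other tested probe had -0.33 with overlap. GUSB, beta-glucuronidase, had levels of 9.75, 9.51 and 9.54 in inhibitor samples and 10.07, 10.08 and 10 in vehicle samples. Its groups did not overlap either, and the log2 fold change was -0.45 ± 0.15 (adjusted p = 0.109). NAGLU, an enzyme of heparan sulfate breakdown, had -0.35, and GLB1, the lysosomal beta-galactosidase, had -0.01 with a 95% interval from -0.34 to 0.33. MAN2B1 (-0.08) and GALC (0.12) completed the list. IDUA was detected on 0 arrays and HEXA on 1 vehicle array, so neither was tested.

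All 5 sulfatases were tested and none passed, 4 of them with positive log2 fold changes (median 0.15). ARSB, which removes sulfate from dermatan and chondroitin sulfate, was the gene nearest to the threshold. It had levels of 7.43, 7.19 and 7.31 in inhibitor samples and 6.87, 6.09 and 6.46 in vehicle samples, without overlap. The log2 fold change was 0.84 ± 0.21 (adjusted p = 0.0529), and its other tested probe had 0.43, also without overlap. SGSH, a sulfatase of heparan sulfate, had levels of 8.43, 8.02 and 8.03 in inhibitor samples and 8.27, 8.28 and 8.14 in vehicle samples, overlapping, with a log2 fold change of -0.07 ± 0.17 (adjusted p = 0.836). ARSA and GALNS had 0.17 and 0.15, and the other tested probe of ARSA had -0.18. The value of IDS, iduronate sulfatase, depended on the probe, as described below.

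The lipid enzymes and the activator proteins that present lipids to hydrolases held no gene past the test. Of 4 lipid enzymes none passed, and all 4 log2 fold changes were above 0 with a median of 0.16. LIPA, the acid lipase of cholesteryl esters, had levels of 10.62, 10.69 and 10.94 in inhibitor samples and 10.61, 10.45 and 10.53 in vehicle samples. The groups touched without overlapping, and the log2 fold change was 0.22 ± 0.16 (adjusted p = 0.442). PPT1, a thioesterase, had levels of 11.90, 12.02 and 12.09 in inhibitor samples and 11.80, 11.88 and 12.03 in vehicle samples. PPT1 overlapped between the groups, with a log2 fold change of 0.10 ± 0.15 (adjusted p = 0.741). SMPD1, acid sphingomyelinase, had levels of 5.52, 5.70 and 5.65 in inhibitor samples and 5.33, 5.12 and 5.72 in vehicle samples, and a log2 fold change of 0.24 ± 0.19 (adjusted p = 0.483). ASAH1, acid ceramidase, had levels of 6.47, 6.62 and 6.12 in inhibitor samples and 6.35, 6.22 and 6.56 in vehicle samples, and 0.02 ± 0.18 (adjusted p = 0.951). Both overlapped between the groups.

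The 2 activator genes had opposite signs. GM2A, the cofactor of beta-hexosaminidase, had levels of 5.53, 6.22 and 6.08 in inhibitor samples and 6.39, 6.35 and 6.70 in vehicle samples, and a log2 fold change of -0.53 ± 0.21 (adjusted p = 0.164). PSAP, the precursor of the saposins, had levels of 11.89, 11.74 and 12.10 in inhibitor samples and 11.24, 11.60 and 11.85 in vehicle samples, and a log2 fold change of 0.35 ± 0.20 (adjusted p = 0.311). The groups of GM2A did not overlap and those of PSAP did.

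All 7 membrane protein genes with a probe were tested, and none passed. Their median log2 fold change was 0.14, with 4 above 0 and 3 below. MCOLN1, the calcium release channel mucolipin of the lysosomal membrane, had levels of 7.78, 8.11 and 7.77 in inhibitor samples and 6.81, 7.51 and 6.82 in vehicle samples. The groups did not overlap, although vehicle replicate 2 lay closer to the inhibitor arrays than to the other vehicle arrays on this scale. The log2 fold change was 0.84 ± 0.22 (adjusted p = 0.0591), and 0.48 with the deposited processed values. MCOLN1 passed the threshold in 8 of its 16 alternative settings, as did ARSB, with adjusted p-values from 0.00679 to 0.193 for MCOLN1 and from 0.00759 to 0.169 for ARSB.

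The abundant membrane glycoproteins LAMP1 and LAMP2 are used as lysosome markers. LAMP1 had levels of 10.16, 9.98 and 10.16 in inhibitor samples and 10.48, 9.88 and 10.17 in vehicle samples, with overlapping groups. Its log2 fold change was -0.08 ± 0.19 (adjusted p = 0.840), with a 95% interval from -0.50 to 0.34. LAMP2, on the probe that stood for the gene, had levels of 11.11, 10.99 and 11.34 in inhibitor samples and 11.41, 11.26 and 11.44 in vehicle samples, and a log2 fold change of -0.22 ± 0.16 (adjusted p = 0.435), again with overlap. LAPTM4B, a four-span membrane protein, had levels of 12.24, 12.15 and 12.18 in inhibitor samples and 12.05, 11.997 and 12.12 in vehicle samples. Its groups were tight and did not overlap, yet the log2 fold change was only 0.14 ± 0.14 (adjusted p = 0.609). SCARB2, which carries glucocerebrosidase to lysosomes, had 0.31 ± 0.15 without overlap (adjusted p = 0.244). LAPTM4A (0.22) and CLN3 (-0.01) overlapped between groups, while the other tested probe of CLN3 had 0.23 without overlap.

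Of the proton pump, 17 of 19 genes were tested, 1 rose, 0 fell and 16 did not pass. The log2 fold changes were above 0 for 13 and below for 4, with a median of 0.16, and the groups did not overlap for 6 with the inhibitor higher and for 0 with it lower, against 18.5% and 13% of all genes. ATP6V0A1 encodes an isoform of the large membrane subunit that channels protons in the V0 sector and sets where the pump is placed. It had levels of 10.64, 10.62 and 10.68 in inhibitor samples and 9.88, 9.97 and 10.06 in vehicle samples, which were tight groups far apart. Its log2 fold change was 0.68 ± 0.15 (SE, n = 3 per group, limma adjusted p = 0.0348). The value ranged from 0.63 to 0.87 over 16 alternative settings. Those that change only the filter, the averaging of probes, the variance prior or the replicate block cannot move it, since the gene has a single tested probe. The call was lost in 8 of the 16, with limma adjusted p-values from 0.00368 to 0.136 over all 16. Among these were median centring (0.0519) and the removal of any single inhibitor or vehicle array (0.0600 to 0.136).

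Most other V0 genes had smaller positive values that missed the threshold. ATP6V0B, a proton-carrying ring subunit, had levels of 11.73, 11.77 and 11.61 in inhibitor samples and 11.14, 11.38 and 11.28 in vehicle samples. The log2 fold change was 0.44 ± 0.15 (adjusted p = 0.119), and 0.53 on its other probe, where the groups overlapped. ATP6V0E2, a small membrane subunit, had levels of 11.38, 11.37 and 11.49 in inhibitor samples and 11.11, 10.81 and 11.18 in vehicle samples, with a log2 fold change of 0.38 ± 0.16 (adjusted p = 0.186). On these probes neither gene overlapped between the groups. ATP6V0E1, its close relative, had levels of 12.34, 12.34 and 12.34 in inhibitor samples and 12.32, 12.34 and 11.87 in vehicle samples, so vehicle replicate 3 alone made the difference of 0.16 ± 0.17 (adjusted p = 0.620). ATP6V0A2 and ATP6V0D1 had 0.11 and 0.10. ATP6V0D2, an isoform known from osteoclasts and kidney, had levels of 4.70, 4.76 and 5.08 in inhibitor samples and 4.76, 5.27 and 5.23 in vehicle samples. It was detected on 1 inhibitor array and 2 vehicle arrays, its groups overlapped, and the log2 fold change was -0.24 ± 0.19 (adjusted p = 0.490).

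In the V1 sector 10 of 12 genes were tested and none passed, 7 of them being positive (median log2 fold change 0.14). ATP6V1A, the catalytic subunit that splits ATP, had levels of 11.76, 11.89 and 11.95 in inhibitor samples and 11.40, 11.33 and 11.53 in vehicle samples. Its groups did not overlap, and the log2 fold change was 0.45 ± 0.15 (adjusted p = 0.115). ATP6V1B2, its partner in the ATP-splitting ring, had 0.25 ± 0.15, also without overlap. ATP6V1G2, known from neurons, had 0.19 ± 0.14 and was detected on 3 inhibitor arrays and 1 vehicle array. ATP6V1G1, a stalk subunit and the brightest of the sector, had levels of 11.99, 12.05 and 12.05 in inhibitor samples and 12.09, 11.82 and 11.96 in vehicle samples, and 0.07 ± 0.15 (adjusted p = 0.814). Its groups overlapped, as did those of ATP6V1C1, ATP6V1B1 and ATP6V1D with 0.22, 0.18 and 0.11.

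The other 3 V1 genes had log2 fold changes below 0. ATP6V1H, the regulatory subunit, had levels of 9.24, 9.58 and 8.99 in inhibitor samples and 9.18, 9.42 and 9.29 in vehicle samples, with a log2 fold change of -0.03 ± 0.19 and an adjusted p of 0.948, and the inhibitor arrays enclosed the vehicle arrays. ATP6V1E1, a stalk subunit, had levels of 10.87, 10.37 and 10.46 in inhibitor samples and 10.84, 11.03 and 10.80 in vehicle samples, with a log2 fold change of -0.32 ± 0.18 (adjusted p = 0.304). ATP6V1F, of the central shaft, had -0.08 with a 95% interval from -0.46 to 0.30. ATP6V1C2 was detected on 0 arrays, and ATP6V1G3, of kidney intercalated cells, on at most 1. ATP6V1B1, the other kidney form, was detected on all 6 arrays, while SLC4A1, the anion exchanger of those cells, was detected on 0.

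Set side by side, the hydrolases with their activators had a median log2 fold change of 0.02 over 29 genes, the membrane proteins 0.14 over 7 and the pump 0.16 over 17, against 0.03 over all genes. On each array, the median of levels centred on each gene's mean was 0.10, 0.09 and 0.11 for the pump in inhibitor samples and -0.08, -0.13 and -0.04 in vehicle samples. For the membrane proteins it was 0.12, 0.02 and 0.08 in inhibitor samples and -0.07, -0.05 and -0.15 in vehicle samples. For the enzymes it was 0.03, 0.03 and 0.07 in inhibitor samples and -0.04, 0.06 and 0.01 in vehicle samples, so these overlapped where the pump and the membrane proteins did not. All genes tested gave 0.02, 0.01 and 0.03 in inhibitor samples and -0.04, -0.02 and 0.01 in vehicle samples, a smaller gap but also without overlap. The difference between the classes is a description and was not tested. Groups did not overlap for 6 of the 29 enzymes with the inhibitor higher and for 5 with it lower, and for 3 and 0 of the 7 membrane proteins, beside the shares of 18.5% and 13% over all genes. In so few genes these counts set no class apart.

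**Figure D3:**
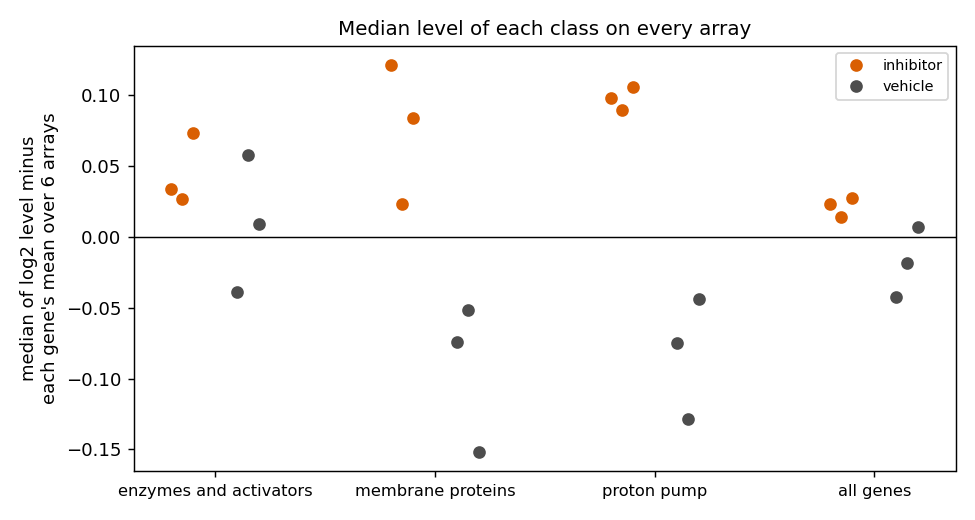
Median over the genes of each class of the log2 level minus that gene's mean over the 6 arrays, for each inhibitor and vehicle array. Inhibitor arrays of the pump lie at 0.09 to 0.11 and its vehicle arrays at -0.13 to -0.04, while those of the enzymes overlap.

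Medians of the pump and of the membrane proteins were above that of all genes in each of the 14 alternative settings that can move a class median, by 0.06 to 0.21 and by 0.06 to 0.13. The median of the enzymes was above it in 5 of 14, with differences from -0.05 to 0.06. Median centring in place of quantile normalization moved the median of all genes to 0.24, and relative to that shift the pump was higher by 0.11, the membrane proteins by 0.06 and the enzymes by 0.01.

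**Figure D4:**
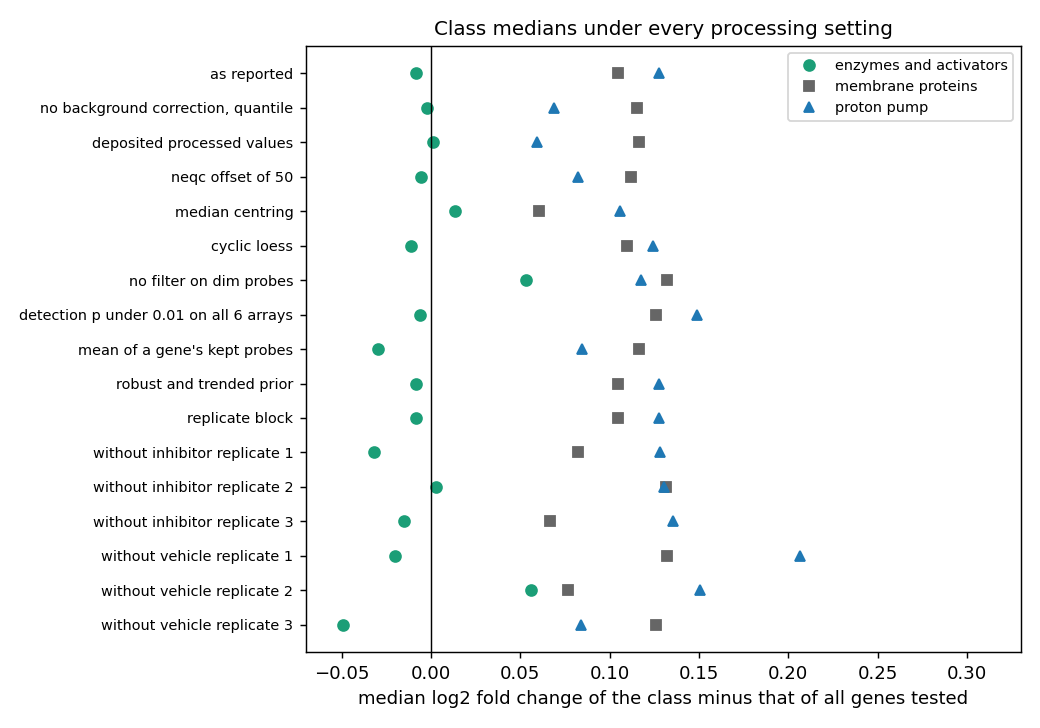
Median log2 fold change of each class minus the median of all genes tested (x axis) under the reported processing and each of 16 alternatives (y axis), of which the robust prior and the replicate block repeat the reported medians by construction. Pump and membrane protein medians lie to the right of 0 throughout, and enzyme medians on both sides of it.

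Probes of a single gene did not always move together, which bears on how the class counts are read. Of 19 genes with several tested probes, 11 had all of them in the same direction. The annotation names the transcript each probe was designed for, but not whether other transcripts share the probed stretch. The largest split was in IDS, an enzyme of heparan and dermatan sulfate breakdown. The probe for the main transcript NM_000202 had levels of 7.92, 8.02 and 8.34 in inhibitor samples and 8.16, 8.05 and 7.80 in vehicle samples, with a log2 fold change of 0.10 ± 0.18. Both probes for the alternative transcript NM_006123 were lower in every inhibitor sample. One had 5.44, 5.57 and 5.53 in inhibitor samples and 6.35, 6.24 and 6.801 in vehicle samples, and fell by 0.95 ± 0.18 in log2 units (adjusted p = 0.0328 in limma over all 19958 probes). The other had 7.62, 7.29 and 7.44 in inhibitor samples and 8.15, 8.64 and 8.15 in vehicle samples, and fell by 0.87 ± 0.19 (adjusted p = 0.0408). Of all tested probes 3.83% were called.

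LAMP2 is known to give 3 splice forms, of which LAMP2A serves chaperone-mediated autophagy. Both probes for NM_002294, the transcript of LAMP2A, had higher levels in inhibitor samples without overlap. Their log2 fold changes were 0.59 ± 0.15 (adjusted p = 0.0604 over all probes) and 0.39 ± 0.15 (adjusted p = 0.159). On the first of these probes the levels were 10.39, 10.61 and 10.48 in inhibitor samples and 9.89, 9.86 and 9.96 in vehicle samples. The 3 probes for NM_013995, the transcript of LAMP2B, had 0.37, -0.22 and -0.26, all with overlapping groups, so they did not share a direction among themselves. CTSC split as well. Its 3 probes for NM_001814 had log2 fold changes from -0.68 to -0.42, each without overlap, while the probe for NM_148170 was detected on all 3 inhibitor arrays and no vehicle array, at least 1.09-fold higher (adjusted p = 0.247 over all probes, group means 5.18 and 4.86), and so also passed the filter through the inhibitor group alone.

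For IDS and LAMP2, chosen after their values were seen, the split can be given as a single value per array, the mean log2 level of one transcript's probes minus that of the other's. It is given as a description, without a p-value. The same kind of value for CTSB overlapped between the groups, with means of -1.54 in inhibitor samples and -1.15 in vehicle samples. For IDS the difference of NM_006123 and NM_000202 was -1.39, -1.59 and -1.85 in inhibitor samples and -0.91, -0.60 and -0.32 in vehicle samples. Every inhibitor sample lay below every vehicle sample, with means of -1.61 and -0.61. For LAMP2 the difference of NM_002294 and NM_013995 was 0.04, 0.17 and -0.05 in inhibitor samples and -0.69, -0.34 and -0.40 in vehicle samples. Here every inhibitor sample lay above every vehicle sample, with means of 0.05 and -0.47.

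**Figure D5:**
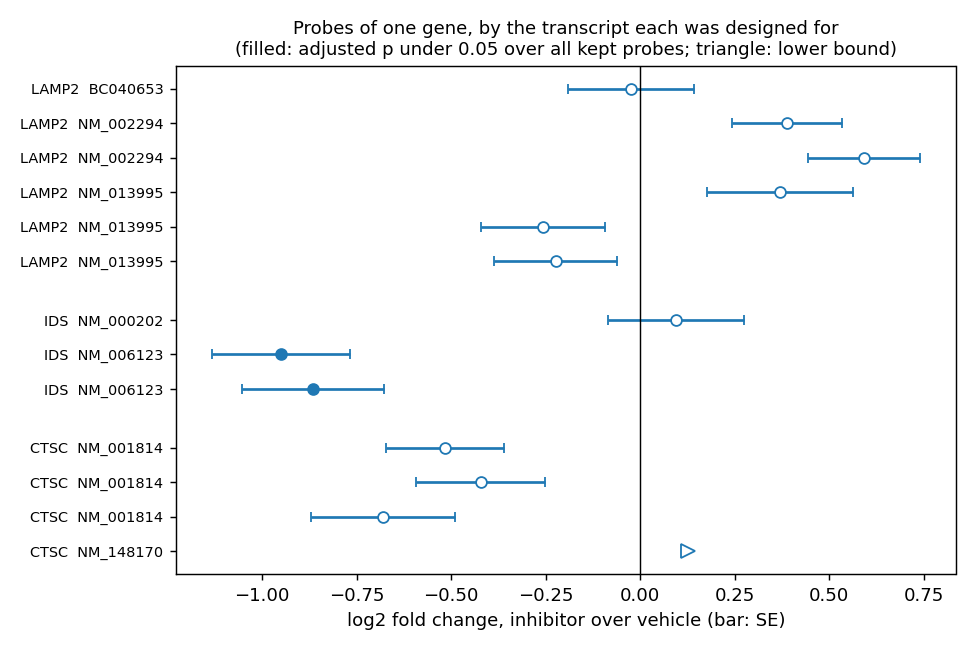
Log2 fold change of inhibitor over vehicle with its SE (x axis) for every tested probe of LAMP2, IDS and CTSC, labelled by the transcript it was designed for. The CTSC probe for NM_148170 is a triangle at its lower bound. Filled points are the probes of IDS at -0.95 and -0.87, and the IDS probe for NM_000202 lies at 0.10.

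Around these genes, the wider lysosomal machinery also held few genes past the test. Of 13 tested further membrane proteins 1 rose, NPC1, the lysosomal cholesterol exporter, which had levels of 8.43, 8.60 and 8.76 in inhibitor samples and 7.63, 7.93 and 7.81 in vehicle samples. Its log2 fold change was 0.80 ± 0.17 (adjusted p = 0.0316), and the list's median was 0.04. No gene passed among 11 further hydrolases (median 0.02), 14 genes of sorting to lysosomes (median 0.10) or 7 partners of the pump (median 0.27).

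None of 7 tested regulators of lysosomal genes passed, and their median was 0.19. TFEB, the best known of them, was detected on 0 arrays. Its relative TFE3 had levels of 6.51, 6.70 and 6.73 in inhibitor samples and 5.97, 5.99 and 6.28 in vehicle samples, without overlap, and a log2 fold change of 0.57 ± 0.16 (adjusted p = 0.0748). MITF had 0.19 ± 0.16 (adjusted p = 0.508), and TBK1 itself 0.10 ± 0.17 (adjusted p = 0.753). Transcript levels do not measure the activity of these factors, of the enzymes or of the pump.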

How the data were processed

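Illumina HumanHT-12 V4.0 arrays were run on RNA from 6 samples. Per the labels' protocols the RNA was purified on columns and passed a Bioanalyser quality control, and the submitters' processing notes name lumi without a version. For each probe the deposited table gives, per the file headers, a linear signal intensity and its detection p-value, not normalized between arrays. The authors' deposited processed values look like log2 values with the same distribution on every array (column medians of 7.16). They ran in the direction of the signal and were not centred per gene, but their transformation and log base are not given. They served as an alternative.

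Intensities were background-corrected with neqc of limma 3.58.1 in R 4.3.3 (normexp from the detection p-values, offset 16), quantile-normalized and taken to log2, which enlarges fold changes of dim probes. The filter kept probes whose detection p was under 0.05 on 3 or more arrays, so a probe detected only in 1 group could pass through that group. Symbols came from the platform annotation, updated through the gene ID with RefSeq GRCh38.p14 (30073 of 30112 probes with 1 symbol matched, 8 had several and 17201 none). The probe with the highest mean stood for a gene. The group difference was fitted in limma (lmFit, then eBayes) with no covariate. Benjamini-Hochberg adjustment ran over 11582 genes, or over 19958 probes where single probes are given. The fit was checked on simulated data with independent arrays. Such data cannot show how it behaves with technical replicates or with probes that pass the filter through 1 group. Replicate numbers were not taken as pairs, since deviations of same-numbered arrays had correlations of -0.14, 0.02 and 0.12. No slide or scan date was used here, and the number of arrays limits the precision.

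The members and lists were chosen with earlier results of these data known. Genes past the threshold, the extremes, the smallest p and the brightest of each role, and a preset group of well-known genes are given in full.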

Additional observations from a re-analysis of the deposited data

How the results depend on the processing

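The count of lysosomal and pump genes past the test, 2 higher and 0 lower as reported, depended on the variance and background model. Out of 53 tested, 8 rose and 3 fell without background correction and with a robust, trended prior. That was 20.8% of the members, against 11.8% and 10.7% of all genes. With the deposited processed values 6 rose and 3 fell (17%, against 11.7%). An offset of 50 gave 6 rises and 2 falls (15.1%, against 10.2%), and median centring 4 rises (7.55%, against 6.14%). The shares were 3.77% against 5.45% as reported, 5.66% against 6.27% with cyclic loess normalization and 3.39% against 3.49% without the filter. Whether the members differed from all genes was not tested. Under the stricter filter, detection p below 0.01 on each of the 6 arrays, 3 of 48 rose and 2 fell. That was 10.4% of the members, near the 10.3% of all 8696 genes called. With the mean of a gene's probes 3 rose and 1 fell, IDS, whose log2 fold change turned to -0.57. That was 7.55% of the members, near the 7.36% of all genes called. Leaving out each array gave 0 to 3 risers and 0 fallers, at most 5.77% of the members and 3.72% of all genes. The corresponding rises and falls over all genes, 416 and 215 as reported, were 823 and 544 without background correction, 816 and 539 with the processed values, 725 and 451 with the offset of 50, 675 and 36 with median centring, and 762 and 478 with the robust prior, with 388 falls under the strict filter. They ranged from 2 to 301 rises and from 0 to 121 falls without single arrays. The replicate block, for numbers that did not pair the samples, left 28 rises and 12 falls over all genes and 0 lysosomal or pump genes, with adjusted p-values of 0.0526 for CTSK and 0.0785 for ATP6V0A1. The median log2 fold change of the pump, 0.16 as reported, was 0.0871 without background correction, 0.0754 with processed values, 0.11 with the offset of 50, 0.35 with median centring, 0.12 without the filter, 0.11 with mean probes and 0.13 to 0.23 without single arrays. Median centring moved the enzymes to 0.26 and the membrane proteins to 0.30, and without single arrays the enzymes ranged from -0.00806 to 0.0871. Settings without an array rest on fewer samples, and the cause of the other moves was not tested. Of 837 values of single genes under alternatives, 782 stayed on the same side of the threshold, 44 newly passed, 10 no longer passed and 1 changed sign with a call. CTSK was tested in 12 of 16 alternatives and ATP6V0D2 in 12, since both lie near background, where the size of a fold change depends on the background correction and its offset.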

Other observations

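The nutrient-sensing complex that the pump binds at the lysosomal surface, and the inhibitors of cathepsins, were looked at beside the members. Of 11 tested genes of nutrient signalling, which include the LAMTOR scaffold, the RRAG GTPases and MTOR, none passed the test, 7 of them being positive (median log2 fold change 0.16). MTOR, like the other genes of this section named after its values were seen, had 0.33 ± 0.15 (SE, limma adjusted p = 0.226). Of the cathepsin inhibitors, CST3, secreted cystatin C, had log2 levels of 11.32, 11.29 and 10.89 in inhibitor samples and 11.79, 11.83 and 11.61 in vehicle samples, and a log2 fold change of -0.58 ± 0.17 (adjusted p = 0.0837). Its groups did not overlap, while CSTB, the cytosolic cystatin B, had 0.00 ± 0.17.

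Among genes of lysosomal function outside the members, some stood close to the threshold. CLCN7, the chloride-proton exchanger that works beside the pump, had levels of 10.38, 10.57 and 10.69 in inhibitor samples and 9.91, 9.81 and 10.09 in vehicle samples, with a log2 fold change of 0.61 ± 0.16 (limma adjusted p = 0.0603). GNPTG, a subunit of the enzyme that tags hydrolases for transport to lysosomes, had levels of 8.002, 7.57 and 7.87 in inhibitor samples and 7.01, 7.25 and 7.28 in vehicle samples, with 0.63 ± 0.17 (adjusted p = 0.0675). Neither gene overlapped between the groups.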
